A study of Mus musculus with 8 samples.

Results

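The data describe how the response of mouse embryonic fibroblasts (MEFs) to the stiffness of their substrate differed between wild-type (WT) cells and cells without caveolin-1 (Cav1KO). For each gene the stiffness effect (stiff minus soft, on log2(CPM + 1), where CPM are read counts scaled to library size) was taken in each genotype, and the difference of these effects, WT minus Cav1KO, is called the interaction. All 12494 of the 12528 listed genes that reached 1 CPM in at least 2 libraries were tested, and 1309 of them (10.5%) passed a Benjamini-Hochberg adjusted p of 0.05 in limma. In 559 genes (4.47%) the interaction was above 0 and in 750 genes (6.0%) it was below 0. A fit that leaves out a library has 1 left in that group, so a lower count can reflect lost power. The count of passing genes changed strongly with the library left out. It was 377 without the second and 3436 without the first Cav1KO stiff library, 110 and 119 without the first and the second Cav1KO soft library, 226 and 388 without the first and the second WT soft library, 165 without the first WT stiff and 1259 without the second WT stiff library.

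The 4 groups were WT cells on stiff polyacrylamide, WT cells on soft polyacrylamide, Cav1KO cells on stiff and Cav1KO cells on soft polyacrylamide, with 2 libraries each. The cells were immortalized MEFs from WT and Cav1KO littermates, seeded at low density on gels coated with fibronectin and collected after 24 h. No further allele or agent is named for any group. A second line of either genotype is not named, so genotype and cell line cannot be told apart. Since nothing states that the 2 libraries of a group came from separate cultures, the p-values measure the spread between these libraries, which may be technical.

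Caveolin-1 is the main coat protein of caveolae, small pits of the plasma membrane that flatten under tension and are rich in cholesterol. Fibroblasts on a stiff substrate spread, build actin stress fibres and focal adhesions and load actin-dependent transcription factors such as YAP and MRTF into the nucleus, while on a soft substrate they round up and tend to leave the cell cycle. An interaction asks whether a gene follows this mechanical switch to the same extent when caveolin-1 is missing.

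Each library held between 17089836 and 19944952 reads on the listed genes. For Cav1, the deleted gene, WT cells gave 949.8 to 1157 CPM, and no Cav1KO library exceeded 0.411 CPM. Of 12 fibroblast markers 10 were listed, with a summed level of 9256 to 9429 CPM in WT stiff, 12049 to 12198 in WT soft, 4559 to 5704 in Cav1KO stiff and 14016 to 14060 in Cav1KO soft libraries. Of the markers of other cell types, 0 of 12 epithelial, 1 of 11 endothelial (Egfl7), 2 of 14 macrophage (Cd14 and Cd68), 2 of 16 skeletal muscle (Tnnc1 and Mylpf) and 5 of 12 neural genes were listed, and the other markers of those types were not in the table. Libraries differed by transcript length, and the second Cav1KO stiff library deviated most. In the longest decile of transcripts (6746 nt and more) its median deviation from the mean of all 8 libraries was -0.35 on the log2 scale, against -0.02 in the first Cav1KO stiff library and 0.15 to 0.23 in the Cav1KO soft libraries. There the first and second WT stiff libraries were at 0.18 and -0.07 and the WT soft libraries at -0.14 and -0.02, so the second Cav1KO stiff library was not the only library to deviate. Results are therefore also given without it.

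The 1309 genes were divided by their separate stiffness effects. In 105 genes (0.84% of the tested genes) both genotypes passed the test in opposite directions, in 303 genes (2.43%) WT cells alone passed, in 538 genes (4.31%) Cav1KO cells alone passed, and in 360 genes (2.88%) both passed in the same direction with unequal size. The remaining 3 genes (0.024%) passed for the interaction alone. Of the 360, 148 (1.18%) rose on stiff substrate and by more in Cav1KO cells, 7 (0.056%) rose and by more in WT cells, 129 (1.03%) fell and by more in Cav1KO cells, and 76 (0.608%) fell and by more in WT cells. For comparison, 48.4% of all tested genes passed for stiffness in WT cells and 56.1% in Cav1KO cells. The classes were cut from the same fit, so their sizes and median effects are descriptions. Where a gene is said to move in 1 genotype alone, the other effect missed the threshold and need not be absent.

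**Figure D1:**
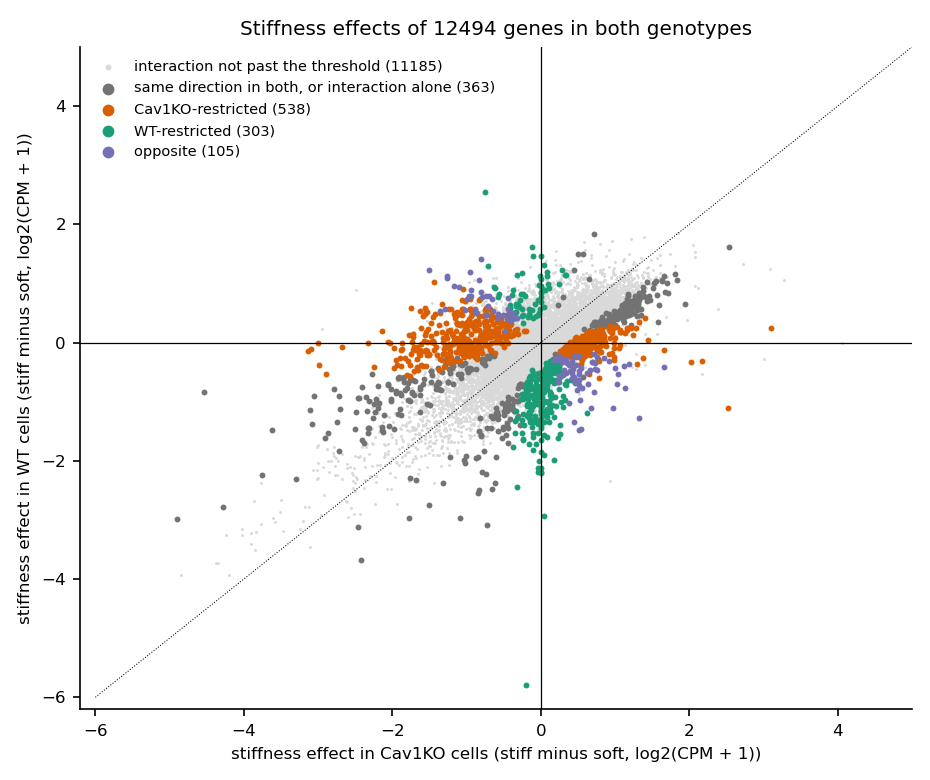
Stiffness effect (stiff minus soft, log2(CPM + 1)) of each of the 12494 tested genes in Cav1KO cells (horizontal axis) and in WT cells (vertical axis), 1 point per gene, coloured by class, with equal effects on the dotted line. The 105 opposite genes lie in the upper left and lower right quadrants. In the 303 WT-restricted and 538 Cav1KO-restricted genes the effect of the other genotype missed the threshold, and many of them lie off the axes.

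Genes with opposite responses fell into a group of 40 (0.32% of tested genes) that rose on stiff substrate in WT cells and fell in Cav1KO cells, and a group of 65 (0.52%) that fell in WT cells and rose in Cav1KO cells. The 65 genes were led by Il6, Idi1, Cdkn1a, Cxcl1 and Slpi. Of the 65, 24 were in any of the 26 gene lists described below, with 8 in that of cholesterol synthesis and uptake and 3 each in those of chemokines, cytokines and complement, of glycolysis and hypoxia, and of chaperones of the endoplasmic reticulum. The 40 genes were led by Mki67, Myh9, Cenpe, Map1b and Cep250. Of the 40, 12 were in any of the lists, with 4 among SRF and MRTF targets, 3 in focal adhesions and 2 each in mitosis and the spindle, actin filaments and matrix glycoproteins. The median effect of the 65 was -0.46 in WT and 0.51 in Cav1KO cells. The median effect of the 40 was 0.56 in WT and -0.74 in Cav1KO cells. In all tested genes both medians were -0.02. In 28 of the 65 genes the Cav1KO mean was below WT on soft and above it on stiff substrate, so the order of the genotypes turned over. In 26 of the 40 it turned over the other way. Of all 12494 tested genes 1672 turned over the first way and 1622 the other way. Which way a gene turns is fixed by the sign of its interaction, which formed the groups.

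Il6, an inflammatory cytokine (chr5:30013114-30019981, gene coordinates here and below in GRCm38), stood at 5.17 and 5.81 CPM in WT stiff libraries, 15.4 and 13.9 in WT soft, 9.83 and 9.15 in Cav1KO stiff and 3.71 and 2.73 in Cav1KO soft. WT soft was the highest group and Cav1KO soft the lowest, and the stiff and soft libraries overlapped in neither genotype. The WT effect was -1.27 and the Cav1KO effect 1.32, with an interaction of -2.59 (SE 0.22, limma adjusted p = 0.00161). The interaction remained past the threshold in 8 of 8 fits that each left out a library. Cxcl1, a chemokine that attracts neutrophils, had 105 and 117 CPM in WT stiff, 321 and 304 in WT soft, 223 and 253 in Cav1KO stiff and 165 and 167 in Cav1KO soft libraries. Its 4 groups did not overlap, and WT stiff was the lowest and WT soft the highest of them (interaction -2.0, SE 0.12, limma adjusted p = 0.00127). Slpi, a secreted inhibitor of leukocyte proteases, was lower in all WT than in all Cav1KO libraries, with 83.7 and 107 CPM in WT stiff, 301 and 227 in WT soft, 559 and 633 in Cav1KO stiff and 385 and 430.2 in Cav1KO soft libraries. Its effects of -1.45 in WT and 0.55 in Cav1KO cells had opposite signs (interaction -2.0, limma adjusted p = 0.00391).

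The promoters of the leading gene of each opposite group are shown as examples, and 1 promoter does not stand for its group. They are the 250 bases before the RefSeq start in GRCm38.p6, at chr5:30012864-30013113 on the + strand for Il6 and chr7:135716380-135716629 on the - strand for Mki67, and capitals mark an AP-1 motif (TGANTCA) or a CCAAT box (CCAAT) on either strand.
Il6: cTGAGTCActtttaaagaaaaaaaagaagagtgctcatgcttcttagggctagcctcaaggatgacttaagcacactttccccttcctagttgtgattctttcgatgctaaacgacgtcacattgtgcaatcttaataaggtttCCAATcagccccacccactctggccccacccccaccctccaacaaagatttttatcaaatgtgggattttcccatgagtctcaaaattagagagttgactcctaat
Mki67: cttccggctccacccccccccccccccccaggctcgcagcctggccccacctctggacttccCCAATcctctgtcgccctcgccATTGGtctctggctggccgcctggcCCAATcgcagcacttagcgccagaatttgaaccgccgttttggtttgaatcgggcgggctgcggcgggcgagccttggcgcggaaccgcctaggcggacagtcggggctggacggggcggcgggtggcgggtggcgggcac
The Il6 window held an AP-1 motif and a CCAAT box, and the Mki67 window held 3 CCAAT boxes and no AP-1 motif. By symbol, 9074 of the 12494 tested genes had a promoter in the RefSeq table, and 4.02% of these windows held the AP-1 letters and 37.7% the CCAAT letters. Among the 50 windows of the genes that fell in WT and rose in Cav1KO cells, 5 (10%) held the AP-1 letters, 23 (46.0%) the CCAAT letters and 7 (14.0%) the letters GGAATG of the TEAD factors that YAP binds, which 10.4% of all windows held. Among the 30 windows of the genes that moved the other way, 0 held the AP-1 letters, 13 (43.3%) the CCAAT letters and 2 (6.67%) the TEAD letters. The CArG box, bound by the factor SRF, was in 0 of the 50 windows, in 0 of the 30 and in 1.11% of all. A match is a description of letters, and no match says only that they are absent from this window.

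Cdkn1a, which encodes the cell cycle inhibitor p21, had 7.08 and 6.44 CPM in WT stiff, 15.2 and 16.0 in WT soft, 4.65 and 3.73 in Cav1KO stiff and 1.83 and 1.44 in Cav1KO soft libraries. All WT libraries were above all Cav1KO libraries, and the gap was wide on soft and narrow on stiff substrate (interaction -2.07, SE 0.21, limma adjusted p = 0.00286). Idi1, the isopentenyl diphosphate isomerase of the mevalonate pathway (chr13:8885501-8892451), had 71.0 and 81.7 CPM in WT stiff, 103 and 101 in WT soft, 146 and 177 in Cav1KO stiff and 48.5 and 51.8 in Cav1KO soft libraries. Cav1KO stiff was its highest group and Cav1KO soft its lowest, with no overlap between groups (interaction -2.08, SE 0.15, limma adjusted p = 0.00131). Because 21.1% of the 60 nt windows of its transcript also occur in another listed gene, its level is uncertain. Each of the 5 leading genes passed in 8 of 8 omissions of a library, and with the second Cav1KO stiff library left out their interactions ran from -2.64 to -1.91.

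Further genes of this group were chosen after their values were seen. Il1rl1, the receptor of interleukin 33, had 2005 and 2368 CPM in Cav1KO stiff and 1049 and 1068 in Cav1KO soft libraries, against 566 and 694 in WT stiff and 897 and 920.4 in WT soft (interaction -1.58). Ccl2, a chemokine for monocytes, had 16.5 and 17.6 CPM in WT stiff, 22.8 and 22.7 in WT soft, 16.9 and 16.8 in Cav1KO stiff and 7.37 and 6.99 in Cav1KO soft libraries (interaction -1.53), so the genotypes met on stiff and parted on soft substrate. Has2, the main hyaluronan synthase of fibroblasts, behaved likewise with 72.0 and 74.2 CPM in WT stiff, 93.6 and 89.9 in WT soft, 77.5 and 76.3 in Cav1KO stiff and 48.4 and 46.1 in Cav1KO soft libraries (interaction -1.02). The quinone reductase Nqo1 (-1.33), the glutamate transporter Slc1a3 (-1.16), the peptide apelin (-1.14) and the calcineurin inhibitor Rcan1 (-1.41) also had interactions below 0, and these 7 genes passed in 8 of 8 omissions. The transcription factor gene Cebpd (-1.24) passed in 7 of 8 and was lost without the first Cav1KO soft library. The proliferin genes Prl2c2 (-1.78) and Prl2c3 (-1.9), hormones of the prolactin family, are near-identical copies that share 85.7% and 74.6% of their windows with other listed genes, so their separate levels are uncertain.

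Among the 40 genes that rose on stiff substrate in WT cells and fell in Cav1KO cells, Mki67 encodes the proliferation antigen Ki-67 (chr7:135689784-135716361). It had 17.6 and 12.7 CPM in WT stiff, 3.44 and 9.46 in WT soft, 10.3 and 3.95 in Cav1KO stiff and 22.0 and 18.7 in Cav1KO soft libraries. The WT stiff and Cav1KO soft libraries were high, without overlap with the other substrate of their genotype, but libraries of the same group lay far apart (interaction 2.73, SE 0.63, limma adjusted p = 0.0373). Its WT effect of 1.22 (SE 0.45, limma adjusted p = 0.049967) was barely inside the threshold, so its place among the opposite genes hangs on that cut. Its Cav1KO effect was -1.51 (limma adjusted p = 0.0191). Cenpe, a kinetochore motor, had 11.2 and 5.93 CPM in WT stiff, 2.42 and 4.51 in WT soft, 5.0 and 2.85 in Cav1KO stiff and 11.3 and 9.82 in Cav1KO soft libraries (interaction 2.35, limma adjusted p = 0.0261). Map1b, a microtubule-associated protein, was lower in every Cav1KO than in every WT library, with 26.0 and 17.1 CPM in WT stiff, 6.71 and 11.2 in WT soft, 2.65 and 1.32 in Cav1KO stiff and 5.44 and 3.91 in Cav1KO soft libraries (interaction 2.14). Cep250, a linker of centrosomes, had an interaction of 2.03, and Myh9, the heavy chain of non-muscle myosin IIA, of 2.39. Each of these 5 genes passed in 3 of 8 omissions and was lost without the first or second Cav1KO soft, the second Cav1KO stiff, the first WT soft or the first WT stiff library. Without the second Cav1KO stiff library the interaction of Mki67 was 2.14 (limma adjusted p = 0.0736).

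**Figure D2:**
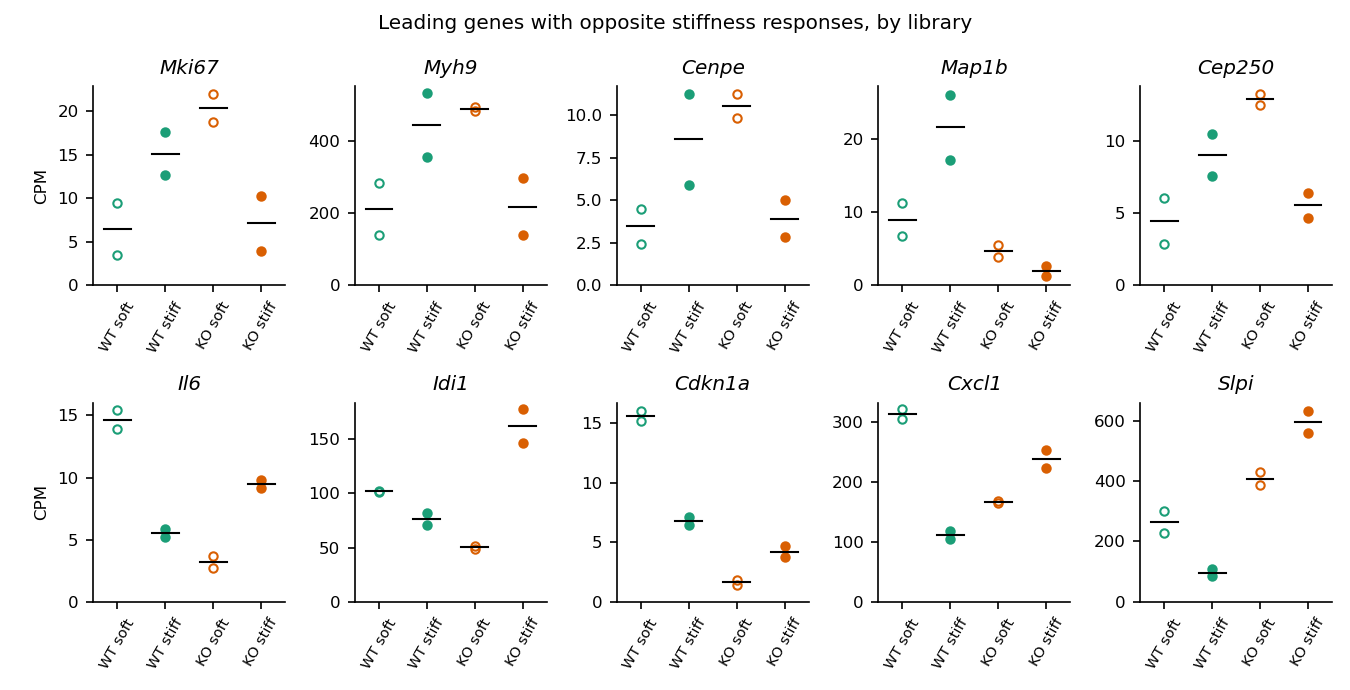
Level (CPM, linear axes from 0) of the 5 leading genes of each opposite group in each of the 8 libraries, with soft libraries as open and stiff libraries as filled circles, WT in green and Cav1KO (KO) in orange, and the mean of each group as a bar. In the top row WT stiff lies above WT soft and Cav1KO stiff below Cav1KO soft with wide spreads, and in the bottom row both directions are reversed with narrow spreads.

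Some other members of the 40 passed in more of the omissions. Fbn1, which encodes fibrillin-1 of the matrix microfibrils (chr2:125300594-125507993), had 75.4 and 63.0 CPM in WT stiff, 44.2 and 48.7 in WT soft, 36.4 and 25.4 in Cav1KO stiff and 77.8 and 74.2 in Cav1KO soft libraries. The WT stiff and Cav1KO soft libraries were high and the Cav1KO stiff libraries the lowest (interaction 1.85, SE 0.22, limma adjusted p = 0.00489), and it passed in 8 of 8 omissions. Acta2, the smooth muscle alpha-actin of contractile fibroblasts, had 966 and 1093 CPM in WT stiff, 685 and 797 in WT soft, 417 and 398 in Cav1KO stiff and 571 and 593 in Cav1KO soft libraries. Its 4 groups did not overlap, and all WT libraries were above all Cav1KO libraries (interaction 0.99, SE 0.13, limma adjusted p = 0.00752). Acta2 passed in 6 of 8 omissions and was lost without either Cav1KO soft library. Plin2, a coat protein of lipid droplets (0.69), passed in 5 of 8 omissions, Lamb1, a laminin chain (1.53), in 4, and Flnc, an actin cross-linker (1.83), in 3. Acta2, Lamb1 and Plin2 were chosen after their values were seen.

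The groups differed in transcript length, a property that the classes did not use. The median transcript was 7458 nt long in the 40 genes and 2770 nt in the 65, against 3339 nt over all tested genes. In the longest decile of all transcripts lay 21 of the 40 (52.5%) and 1 of the 65 (1.54%), against 9.94% of all. Over all tested genes the share with an interaction above 0 went from 1.13% in the shortest decile (1270 nt or less) to 15.1% in the longest, and the share below 0 from 8.52% to 2.17%. The median interaction of the longest decile was 0.43, and 0.30 without the second Cav1KO stiff library. With a trend in length and GC content removed from each library it was -0.05, and 36 of the 40 and 63 of the 65 genes still passed. Without the second Cav1KO stiff library 18 of the 40 and 51 of the 65 passed. In all 8 omissions 4 of the 40 and 31 of the 65 passed. The part that RNA length or quality had in these calls was not tested.

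**Figure D3:**
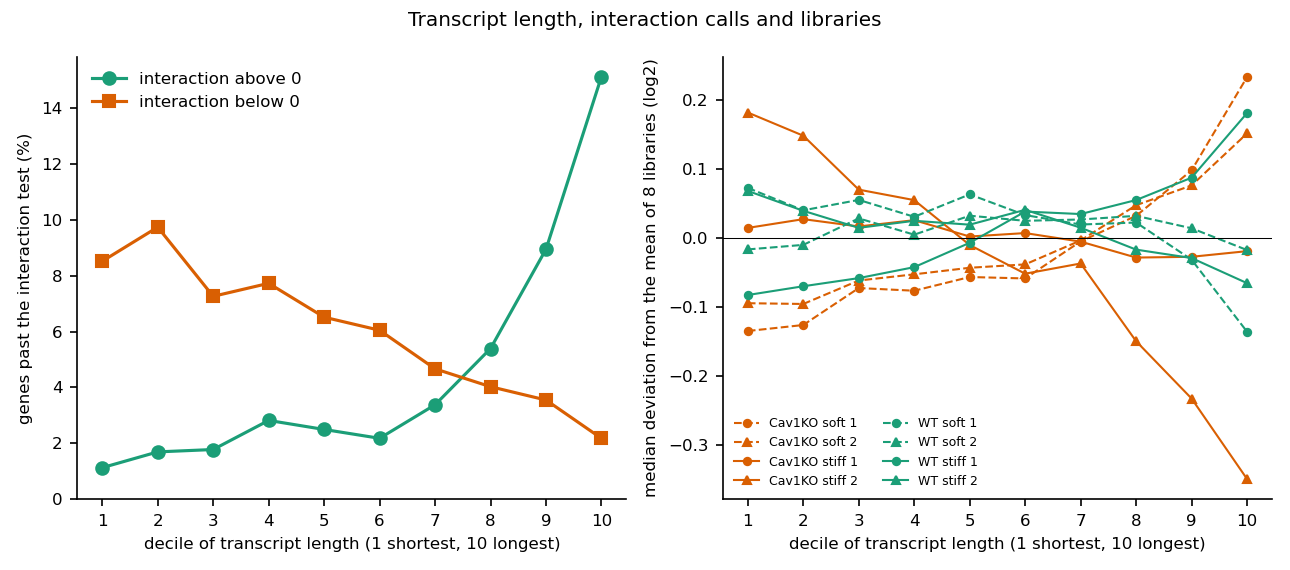
Left, share of genes past the interaction test (%) above and below 0 in each decile of transcript length, and right, median deviation (log2) of each of the 8 libraries from their common mean in the same deciles. The share above 0 climbs from 1.13% to 15.1%, and the second Cav1KO stiff library falls to -0.35 in the longest decile.

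The interaction kept its sign in 105 of 105 opposite genes under each of 20 alternative settings, but many of these could not turn it. In all 40 and all 65 genes the stiff and soft libraries did not overlap in either genotype. Leaving out a library or changing the pseudocount therefore could not turn a sign. Leaving out the variance trend or the filter, library weights and the replicate block alone left the effects as they were. None of these settings is a test of direction. The non-overlap is no separate result, since it also held in the called genotype of every gene of the restricted classes. The share of all tested genes without overlap is not given here. Both separate effects kept their signs in all 105 under 18 settings and in 103 with the length and GC trend removed, with or without the replicate block. Between 30 genes, without the first Cav1KO soft library, and 104, without a filter on low values, stayed in the opposite classes. The edgeR test on the recovered reads kept 90 of them there.

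WT-restricted responses comprised 237 genes that fell on stiff substrate in WT cells alone (1.9% of tested genes) and 66 that rose in WT cells alone (0.528%). Their median effects were -0.84 in WT and 0.01 in Cav1KO cells for the former and 0.77 and -0.16 for the latter. The effects of the genotypes had opposite signs in 139 of the 237 and 51 of the 66, against 3269 of all 12494 tested genes. In 70 of the 237 (29.5%) and 13 of the 66 (19.7%) the gene was below 1 CPM in all 4 Cav1KO libraries, which left little to change, against 3.83% of all tested genes. Penk, the precursor of the enkephalin peptides, was such a gene, with 4.27 and 5.59 CPM in WT stiff and 53.5 and 35.8 in WT soft libraries, and at most 0.0548 CPM in Cav1KO libraries. Unc93b1, which carries Toll-like receptors to endosomes, had 3.92 and 4.45 CPM in WT stiff and 25.5 and 18.1 in WT soft libraries, and Edil3, a matrix ligand of integrins, 10.3 and 9.80 and 38.8 and 36.7. All 3 genes had 3 reads or fewer in each Cav1KO library, so their fitted interactions (-2.96, -2.08 and -1.71) depend on the pseudocount. The edgeR test, which compares ratios, called none of these (adjusted p from 0.218 to 0.999). Of the 70 genes that fell in WT cells and were below 1 CPM in Cav1KO cells edgeR called 1, and of the other 167 it called 130. Of the 237, 71 passed in limma without the second Cav1KO stiff library and 18 passed in all 8 omissions.

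Among WT-restricted genes that both genotypes expressed, the cathepsin Ctsl, a lysosomal protease, had 362 and 399 CPM in WT stiff, 1099 and 914 in WT soft, 1239.6 and 1304 in Cav1KO stiff and 1427 and 1549.7 in Cav1KO soft libraries. WT stiff stood below all other groups (interaction -1.17, SE 0.15, limma adjusted p = 0.00571), although 6.37% of its windows are shared with another gene. Col14a1, a collagen that binds fibril surfaces and was chosen after its values were seen, had 8.52 and 6.23 CPM in WT soft libraries and 0.969 to 1.47 CPM in the stiff libraries of both genotypes and in Cav1KO soft (interaction -2.17). Ccl9, a chemokine, had 3.72 and 6.84 CPM in WT stiff, 24.2 and 12.4 in WT soft and 6.06 to 6.94 CPM in the Cav1KO libraries (interaction -1.67). Bnip3, a mitophagy receptor induced by low oxygen, had 174 and 205 CPM in WT stiff, 365 and 349 in WT soft, and 77.3 to 88.5 in the Cav1KO libraries (interaction -0.93). It shares 19.2% of its windows. The mitochondrial mt-Co2 stood at 0 and 0.057 CPM in WT stiff libraries and 18.9 to 75.8 CPM in the others, but all of its windows also occur in another listed gene, so this level is uncertain.

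Of the WT-restricted genes that rose, Pcnt, the scaffold of the pericentriolar matrix, had 11.9 and 8.78 CPM in WT stiff, 2.72 and 4.67 in WT soft, 7.53 and 3.73 in Cav1KO stiff and 8.84 and 9.93 in Cav1KO soft libraries. Its Cav1KO effect of -0.71 missed the threshold (limma adjusted p = 0.0732) with an interaction of 2.0 (SE 0.42, limma adjusted p = 0.0306). Ncam1, an adhesion molecule of the immunoglobulin family, had 65.6 and 48.5 CPM in WT stiff, 20.8 and 28.4 in WT soft, 19.1 and 10.2 in Cav1KO stiff and 15.9 and 17.8 in Cav1KO soft libraries (interaction 1.43). Tmcc3, a transmembrane protein with coiled coils, had 23.6 and 17.7 CPM in WT stiff and 8.76 and 8.71 in WT soft, against 2.30 and 2.03 in Cav1KO stiff and 3.08 and 2.78 in Cav1KO soft libraries (interaction 1.46). Itga3, an integrin subunit for laminin, had 70.0 and 62.1 CPM in WT stiff and 35.8 to 44.2 CPM in all others (interaction 0.75), and was chosen after its values were seen. Of the 66 genes, 7 passed without the second Cav1KO stiff library and 2 passed in all 8 omissions.

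Cav1KO-restricted responses comprised 316 genes that fell on stiff substrate in Cav1KO cells alone (2.53%) and 222 that rose in Cav1KO cells alone (1.78%). Their median effects were 0.07 in WT and -1.03 in Cav1KO cells for the former, and -0.03 and 0.62 for the latter. The effects of the genotypes had opposite signs in 191 of the 316 and 125 of the 222, against 3269 of all 12494 tested genes. In 56 of the 316 (17.7%) and 4 of the 222 (1.8%) the gene was below 1 CPM in all 4 WT libraries, against 2.93% of all tested genes. C3, the central component of complement (chr17:57203970-57228136), had 129 and 97.2 CPM in WT stiff, 98.4 and 148 in WT soft, 205 and 108 in Cav1KO stiff and 1289 and 1275 in Cav1KO soft libraries. The Cav1KO soft libraries stood far above all others, and the WT groups overlapped (interaction 2.98, SE 0.41, limma adjusted p = 0.00752, 8 of 8 omissions). Cyp2f2, a cytochrome P450, had 1.82 and 2.63 CPM in Cav1KO stiff and 24.7 and 24.5 in Cav1KO soft libraries and at most 0.0604 CPM in WT libraries, so its fitted interaction (2.99) depends on the pseudocount, and edgeR did not call it (adjusted p = 0.28). Ahnak2, a giant scaffold protein, had 27.3 and 24.1 CPM in WT stiff, 27.7 and 41.1 in WT soft, 14.9 and 6.85 in Cav1KO stiff and 95.6 and 81.1 in Cav1KO soft libraries (interaction 2.61). Its relative Ahnak (2.33) and the long gene Prrc2c (2.46) each passed in 2 of 8 omissions. The median transcript of the 316 was 6245 nt, and 41.8% lay in the longest decile. With the length and GC trend removed 212 of the 316 passed, and without the second Cav1KO stiff library 81 did. In all 8 omissions 16 passed.

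Of the genes that rose in Cav1KO cells alone, Il13ra2, a decoy receptor of interleukin 13, had 5.62 and 5.47 CPM in WT stiff, 7.85 and 6.72 in WT soft, 24.9 and 28.2 in Cav1KO stiff and 5.75 and 5.76 in Cav1KO soft libraries. Cav1KO stiff stood above every other library (interaction -2.36, SE 0.18, limma adjusted p = 0.00131, 8 of 8 omissions). Slco4a1, an organic anion transporter, had 12.9 and 12.0 CPM in WT stiff, 12.6 and 14.8 in WT soft, 9.24 and 9.26 in Cav1KO stiff and 2.40 and 2.11 in Cav1KO soft libraries, so here Cav1KO soft was the group that stood apart (interaction -1.78, limma adjusted p = 0.00325). Akr1c18, which inactivates progesterone, had 18.8 and 26.1 CPM in Cav1KO stiff and 4.18 and 4.06 in Cav1KO soft libraries and 0.301 to 1.18 CPM in WT libraries (interaction -2.48). Mcpt8, a protease known from basophils, had 35.3 and 36.2 CPM in Cav1KO stiff and 3.76 and 2.88 in Cav1KO soft libraries. No WT library exceeded 0.285 CPM, with more than 3 reads in 1 library, and its interaction of -2.85 became 1.40 in edgeR (adjusted p = 0.448) and 0.74 in DESeq2. Ptgs2, the inducible cyclooxygenase, chosen after its values were seen, had 306 and 260.3 CPM in WT stiff, 235 and 265 in WT soft, 227 and 207 in Cav1KO stiff and 103 and 100.3 in Cav1KO soft libraries (interaction -0.9). Of the 222 genes, 49 passed without the second Cav1KO stiff library and 7 passed in all 8 omissions. The mitochondrial mt-Nd3 (-1.4) shares 97.9% of its windows with another gene and is uncertain.

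Gene lists written with earlier results of these data known were read against the background of 4.47% of genes above and 6.0% below 0. In these counts, above or below 0 means past the interaction test with that sign. For the counts at an unadjusted p the share of all tested genes is not given here, and 4.47% and 6.0% are not their background. Among all 12494 genes DESeq2 called 774 above and 696 below 0, and edgeR 361 and 541. Of 26 such lists, that of cholesterol synthesis and uptake had the highest share of members below 0. Of its 38 tested genes 21 (55.3%) were below 0 and 0 above in limma (26 and 1 at an unadjusted p under 0.05), with a median interaction of -0.57 against -0.07 in all tested genes. The median stiffness effect was -0.09 in WT and 0.47 in Cav1KO cells. Among the 21, the opposite genes were Idi1, Msmo1, Fdps, Nsdhl, Cyp51, Mvd, Fdft1 and Hmgcs1. WT cells alone passed for Insig1 and Pmvk, and Cav1KO cells alone for the others, which include Stard4, Hsd17b7, Sqle, Sc5d, Lss, Acat2, Mvk, Scd2 and Scd1, so the called members ran from early steps of the pathway (Acat2, Hmgcs1) to late ones (Nsdhl, Sc5d).

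In that pathway, Hmgcs1 makes HMG-CoA and had 86.1 and 87.6 CPM in WT stiff, 122 and 118 in WT soft, 101 and 102 in Cav1KO stiff and 80.4 and 82.5 in Cav1KO soft libraries, with no overlap between the substrates of either genotype (interaction -0.78, SE 0.09, limma adjusted p = 0.00479). Fdps, which makes farnesyl diphosphate and shares 10.7% of its windows, had an interaction of -1.23. Fdft1, the squalene synthase, had -0.89 with 8.6% shared. Sqle, which oxidizes squalene, had 105 and 114 CPM in WT stiff, 111 and 116 in WT soft, 179 and 197 in Cav1KO stiff and 112 and 103 in Cav1KO soft libraries (interaction -0.86), so Cav1KO stiff alone stood above the rest. Cyp51, the lanosterol demethylase, had 91.3 and 95.4 CPM in WT stiff, 111 and 111 in WT soft, 111 and 115 in Cav1KO stiff and 66.1 and 66.5 in Cav1KO soft libraries (interaction -1.01). Msmo1, the sterol methyl oxidase, had 69.1 and 86.8 CPM in WT stiff, 98.6 and 102 in WT soft, 106 and 129.9 in Cav1KO stiff and 50.1 and 52.2 in Cav1KO soft libraries (interaction -1.55). Apart from Msmo1 and Fdps, the genes given here with values were chosen after these were seen.

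A pair of regulators of the pathway was also chosen after their values were seen. Srebf2, the transcription factor of sterol genes, had an interaction of -0.33 (limma adjusted p = 0.0619), which was outside the threshold. With the length and GC trend removed it was -0.63 (limma adjusted p = 0.0051). Insig1, the sterol-regulated brake on that factor, had -1.0 (limma adjusted p = 0.0266). Fasn, Acly, Npc1, Npc2 and Abca1, of fatty acid synthesis and sterol transport, were among the 17 members not called. Of the 21 members below 0, 16 passed without the second Cav1KO stiff library (list median -0.55), 20 in edgeR and 21 with the length and GC trend removed, where 24 members in all were below 0. Over the 8 omissions the count ran from 9, without the second Cav1KO soft library, to 21, and the median from -0.58 to -0.47.

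**Figure D4:**
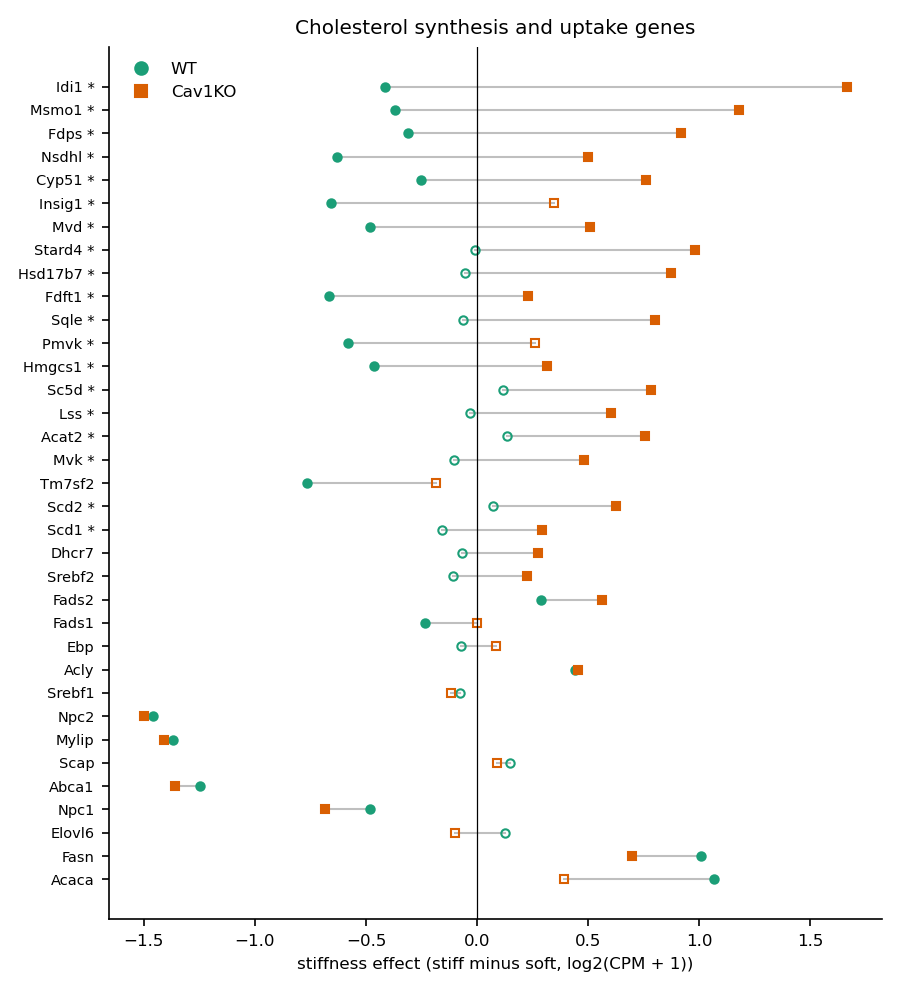
Stiffness effect (stiff minus soft, log2(CPM + 1)) of 35 tested cholesterol genes in WT (green circles) and Cav1KO cells (orange squares), filled where the effect passed the test, with a star for the 19 plotted genes past the interaction test. In all 19 starred genes the Cav1KO effect lies to the right of the WT effect, and in 8 of them both effects are filled on opposite sides of 0.

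Further lists on the side below 0 belonged to metabolism and protein folding. Of 39 genes of glycolysis and hypoxia 14 (35.9%) were below 0 and 0 above in limma (23 and 3 at an unadjusted p under 0.05), with a median of -0.42. Ldha, lactate dehydrogenase A, had 2724 and 3117 CPM in WT stiff, 2698 and 2794 in WT soft, 1850.1 and 2107 in Cav1KO stiff and 973 and 1002 in Cav1KO soft libraries (interaction -0.91), and 10.4% of its windows are shared. Slc2a1, the glucose transporter GLUT1, had 386 and 419.8 CPM in WT stiff, 389 and 385 in WT soft, 191 and 209 in Cav1KO stiff and 117 and 119.8 in Cav1KO soft libraries (interaction -0.69). In both genes the WT groups overlapped and Cav1KO soft was lowest. Ero1l, an oxidase of the endoplasmic reticulum induced by low oxygen (-0.87), and Egln1, an oxygen sensor that marks HIF for breakdown (-0.72), were opposite, and Ero1l passed in 8 of 8 omissions. Slc2a1 and Egln1 were chosen after their values were seen. The count for the list ran from 1, without the second Cav1KO soft library, to 17 over the omissions.

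Of 39 targets of ATF4, the factor of the amino acid response, 13 (33.3%) were below 0 and 0 above in limma (24 and 1 at an unadjusted p under 0.05), with median effects of -0.03 in WT and 0.39 in Cav1KO cells. Atf4 itself had 152 and 159.7 CPM in WT stiff, 149 and 154 in WT soft, 177 and 183 in Cav1KO stiff and 105 and 109 in Cav1KO soft libraries (interaction -0.71, SE 0.09, limma adjusted p = 0.00718), and was chosen after its values were seen. Slc7a11, the cystine transporter, had 36.5 and 30.1 CPM in WT stiff, 36.6 and 42.7 in WT soft, 12.8 and 12.6 in Cav1KO stiff and 5.91 and 5.97 in Cav1KO soft libraries (interaction -1.23). Trib3, a pseudokinase, fell in both genotypes, by more in WT (-1.45) than in Cav1KO cells (-0.44). Chac1, which degrades glutathione, fell in WT cells alone (-1.21, against -0.24 in Cav1KO cells). Of 33 chaperones of the endoplasmic reticulum 9 (27.3%) were below 0 and 0 above in limma (17 and 0 at an unadjusted p under 0.05). Pdia6, a disulfide isomerase, had 288 and 311 CPM in WT stiff, 343 and 339 in WT soft, 505 and 486 in Cav1KO stiff and 296 and 306 in Cav1KO soft libraries (interaction -0.91), and Calr, the lectin chaperone calreticulin, had -0.77. Both counts fell to 1 without the first Cav1KO soft library, and to 7 and 5 without the second Cav1KO stiff library, while the medians stayed between -0.46 and -0.38 for ATF4 targets and between -0.43 and -0.28 for chaperones.

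Lists above 0 belonged to the matrix and to actin-dependent transcription. Of 43 collagen genes 16 (37.2%) were above and 4 below 0 (median 0.35), and of 47 matrix glycoproteins and proteoglycans 15 (31.9%) were above and 6 below (median 0.45). At an unadjusted p under 0.05 in limma the counts were 20 and 7 for collagens and 23 and 11 for glycoproteins and proteoglycans. The median collagen effect was -0.40 in WT and -0.74 in Cav1KO cells. Col1a1, the main chain of type I collagen (chr11:94936224-94953042), had 2612 and 2515 CPM in WT stiff, 2035 and 2273 in WT soft, 859 and 591 in Cav1KO stiff and 2137 and 2212 in Cav1KO soft libraries. The Cav1KO stiff libraries stood far below all others (interaction 1.86, SE 0.22, limma adjusted p = 0.00457, 8 of 8 omissions, 1.59 without the second Cav1KO stiff library). Fn1, fibronectin, had 1524 and 1316 CPM in WT stiff, 1582 and 1896 in WT soft, 975 and 625 in Cav1KO stiff and 3089 and 2972 in Cav1KO soft libraries (interaction 1.66, limma adjusted p = 0.0136) and passed in 4 of 8 omissions. Lama4, a laminin chain (1.64), and Col5a1, which starts collagen fibrils (1.6), fell in Cav1KO cells alone. The 4 collagen genes below 0 included Col4a6 and Col14a1. The summed fibroblast markers given above, which include Col1a1 and Fn1, were likewise lowest in the Cav1KO stiff libraries. In bulk RNA fewer cells of a type and less RNA per cell cannot be told apart. Without the second Cav1KO stiff library 10 collagens and 11 glycoproteins were above 0, and without the first Cav1KO soft library 2 collagens.

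Of 35 matrix proteases and inhibitors 9 (25.7%) were above and 4 below 0. Those above 0 numbered 5 without the second Cav1KO stiff library and 2 to 12 over the omissions. Mmp14, a membrane-bound collagenase, fell on stiff substrate in both genotypes, from 118 and 118 to 80.0 and 59.9 CPM in WT and from 264 and 259 to 54.8 and 43.2 CPM in Cav1KO libraries (interaction 1.64, SE 0.20, limma adjusted p = 0.0054, 8 of 8 omissions). Mmp9, a gelatinase, had 24.3 and 23.2 CPM in Cav1KO soft libraries and 4.65 CPM or less in all others (interaction 1.74). Of 46 targets of SRF and its actin-sensing partner MRTF 15 (32.6%) were above and 2 below 0 in limma (22 and 3 at an unadjusted p under 0.05). The median effects were 0.17 in WT and -0.25 in Cav1KO cells. Vcl, vinculin of focal adhesions, had 251 and 205 CPM in WT stiff, 166 and 194 in WT soft, 161 and 106 in Cav1KO stiff and 262 and 259 in Cav1KO soft libraries (interaction 1.32, limma adjusted p = 0.0239). Egr3, an immediate early factor, had 23.7 and 24.5 CPM in WT stiff, 16.4 and 18.2 in WT soft, 5.24 and 4.88 in Cav1KO stiff and 7.37 and 6.53 in Cav1KO soft libraries (interaction 0.85). The SRF count fell to 3 without the second Cav1KO stiff library and to 0 without the first Cav1KO soft library, with medians from 0.35 to 0.50 over the omissions.

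Chemokines, cytokines and complement went both ways, with 6 of 35 above and 7 below 0 (median -0.09). Below 0 were Il6, Cxcl1, Ccl9, Ccl2, Ptx3, Ccl7 and Cxcl5, all secreted signals of inflammation apart from the soluble pattern receptor Ptx3. Above 0 were the complement genes C3, C4b, C1ra and Cfb, of which Cfb shares 81.3% of its windows with another gene, the chemokine Cx3cl1 and the growth factor of macrophages Csf1. Of 50 interferon-stimulated genes 4 (8.0%) were above 0, all of which fell on stiff substrate in both genotypes and by more in Cav1KO cells. Oasl2, for example, went from 149 and 108 CPM on soft to 12.8 and 24.2 on stiff substrate in WT libraries and from 118 and 119.7 to 6.12 and 4.38 in Cav1KO libraries (interaction 1.5, limma adjusted p = 0.0445). The median stiffness effect over the list was -2.04 in WT and -2.56 in Cav1KO cells, and the median interaction was 0.60. At an unadjusted p under 0.05 in limma, 17 members were above and 0 below 0. DESeq2 on all libraries called 13 above and 0 below 0, and limma called 8 and 0 with the length and GC trend removed. Without the second Cav1KO stiff library 0 of the 50 passed in limma, and edgeR on all libraries called 3.

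Of 53 DNA replication genes 9 (17.0%) were below 0 and 0 above in limma (24 and 2 at an unadjusted p under 0.05), and all 9 rose on stiff substrate in both genotypes and by more in Cav1KO cells. Orc6, of the origin recognition complex, rose from 95.9 and 109 to 148 and 159 CPM in WT and from 46.2 and 46.1 to 98.6 and 118 CPM in Cav1KO libraries (interaction -0.62, limma adjusted p = 0.0373). Of 56 genes of mitosis and the spindle 3 (5.36%), Mki67, Cenpe and Top2a, were above 0, a share near the 4.47% of all tested genes. At an unadjusted p under 0.05 in limma, for which no background is given, 20 were above and 5 below 0. The list median was 0.28. DESeq2 on all libraries called 13 above and 1 below 0. Top2a, the topoisomerase of dividing cells, had 238 and 156 CPM in WT stiff, 106 and 159 in WT soft, 147 and 90.6 in Cav1KO stiff and 248 and 236 in Cav1KO soft libraries (interaction 1.63). Without the second Cav1KO stiff library 1 replication gene and 0 mitotic genes were called by limma, and edgeR on all libraries called 7 and 3.

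Several lists held few calls. Of 74 respiratory chain genes 0 were called by limma and 0 by edgeR. In limma, 2 were above and 19 below 0 at an unadjusted p under 0.05. The 79 ribosomal protein genes had a median interaction of -0.31, and 75 of them had a negative value. Their median was -0.13 with the length and GC trend removed. In limma, 0 were above and 33 below 0 at an unadjusted p under 0.05, and DESeq2 called 11 below 0. After adjustment limma called 1 of the 79, Rpl12 (-0.73), which shares 14.8% of its windows. Without the first Cav1KO stiff library 20 and 28 were below 0. Of 54 lysosomal genes 4 were above and 4 below 0, of 38 Wnt pathway genes 1 and 3, of 35 genes of the Hippo pathway 2 and 1, and of 31 p53 targets 0 and 4. Of 12 caveola components 1 was called, Murc (-1.1), also known as cavin-4, which was at 0.219 CPM or less in Cav1KO libraries.

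In lists of the cytoskeleton, adhesion and signalling the share above 0 was larger than the 4.47% of all tested genes. Actin filaments had 12 of 51 (23.5%) above and 0 below 0, focal adhesions 11 of 50 (22.0%) and 3, and myosin II and its regulators 6 of 30 (20%) and 3. The TGF-beta and BMP pathway had 8 of 42 (19.0%) above and 4 below, junctions 6 of 39 (15.4%) and 4, and YAP targets 6 of 46 (13.0%) and 2. AP-1 and immediate early genes had 5 of 38 (13.2%) above and 6 (15.8%) below 0. These counts changed when single libraries were left out. With the second Cav1KO stiff library left out 4 actin filament, 3 focal adhesion, 0 myosin II, 3 TGF-beta, 0 junction, 2 YAP and 2 AP-1 genes were above 0. With the first WT stiff library left out 1 actin filament, 2 focal adhesion and 1 TGF-beta genes were above 0, and 0 of the other lists. The lowest count over the omissions was 1 for focal adhesions and 0 for each of the others.

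Among the YAP targets, Cyr61, a secreted matricellular protein, had 266 and 237 CPM in WT stiff, 169 and 193 in WT soft, 141 and 126 in Cav1KO stiff and 146 and 152 in Cav1KO soft libraries. It rose on stiff substrate in WT cells alone (interaction 0.63, SE 0.14, limma adjusted p = 0.031) and passed in 3 of 8 omissions. Amotl1, a YAP-binding angiomotin, had an interaction of 1.59, and Thbs1, thrombospondin-1, of 1.34. Both fell in Cav1KO cells alone and passed in 2 and 3 of 8 omissions. Ctgf had an interaction of 0.72 (limma adjusted p = 0.0913) and Ankrd1 of -0.21 (limma adjusted p = 0.451), both outside the threshold.

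**Figure D5:**
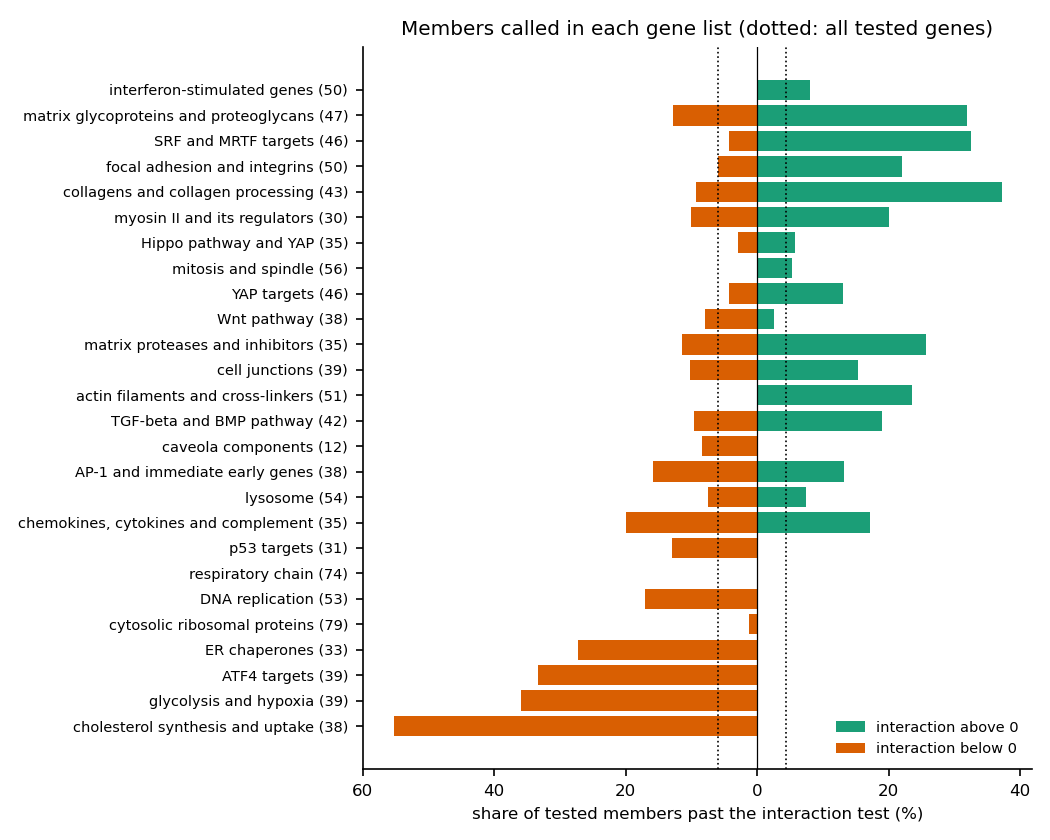
Share of the tested members (%) of each of 26 gene lists past the interaction test, above 0 in green to the right and below 0 in orange to the left, with the number tested in brackets and dotted lines at the shares of all tested genes (4.47% and 6.0%). The cholesterol list reaches 55.3% below 0 and the collagen list 37.2% above 0.

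At the threshold, the last gene inside had an interaction of -0.42 (limma adjusted p = 0.049999) and the first outside 0.89 (limma adjusted p = 0.050008), so passing depended on the spread as well as the size. An absolute interaction of at least 1 was reached by 744 tested genes. The filter on low values left out 34 genes, and 228 genes were tested through the libraries of a single group alone, of which 65 passed. Those 65 are not independent evidence of a difference, since such a gene entered only because that group was high.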

How the data were processed

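RNA-seq was read from 8 libraries of WT and Cav1KO MEFs on stiff or soft polyacrylamide, 2 per group, grouped by genotype and substrate in the labels. Per the labels, poly(A) RNA was sequenced as single reads of 60 nt, and the submitters' processing notes name CASAVA 1.8.2, cutadapt, RSEM 1.2.3 and GRCm38. The authors deposited TMM-normalized CPM, a signal in which read counts were scaled by effective library sizes, so the column sums vary. All values were whole multiples of the value of 1 read within 0.01 (100% in each library), which gave back 17089836 to 19944952 reads per library. Which tool counted whole reads is not given in the sources used here. The floor for a gene without reads was set at 3 reads, which covers counting error only.

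Genes that reached 1 CPM in 2 or more libraries were fitted with limma 3.58.1 (R 4.3.3) on log2(CPM + 1), with all 4 groups, a mean-variance trend and no block, leaving 4 residual degrees of freedom. Two-sided p-values were adjusted over 12494 genes (Benjamini-Hochberg, threshold 0.05). The log2(CPM + 1) scale understates the change of low genes. Opposite, restricted and same-direction classes follow from which stiffness effects passed beside the interaction. The same fit on simulated data recovered 88% of 100 interactions of log2 size 1 and 100% of 100 of size 2, with 10 false calls among 12494 genes. Whether these rates hold for the 8 libraries, whose spread differed between groups, was not tested. Alternatives were edgeR 4.0.16 and DESeq2 1.42.0 on the recovered reads, other pseudocounts, no filter, no variance trend, median centring, quantile normalization, library weights, removal of a length and GC trend, the replicate block and the omission of each library.

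Coordinates and lengths came from the annotation of GRCm38 for 12451 of 12528 genes, and 78 genes without a symbol were kept. The share of transcript windows of 60 nt found in another listed gene was computed for each gene given with values, and it is printed for those at which copies make the level uncertain. Named genes were the 5 with the largest absolute interaction in each opposite or restricted class (protein-coding, mean of at least 5 CPM, libraries of the called genotypes not overlapping), the 3 with the largest in each list, and the genes the paper names, and not every one is described. Some genes are not reported here by name, though they stay in the fits and in the counts of their lists. Genes outside this rule are marked as chosen after their values were seen. The members, lists and tests were chosen with earlier results of these data known.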

Additional observations from a re-analysis of the deposited data

Results flagged for a closer look

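The stiffness effect itself differed between the genotypes by the interaction test in 559 genes with a value above 0 and 750 with a value below 0. The genes named first among those with opposite effects were marked by the same limma test. On the side above 0 these were Mki67 (2.73), Myh9 (2.39), Cenpe (2.35), Map1b (2.14) and Cep250 (2.03), which passed in 3 of 8 omissions of a library each. On the side below 0 these were Il6 (-2.59), Idi1 (-2.08), Cdkn1a (-2.07), Cxcl1 (-2.0) and Slpi (-2.0), which passed in 8 of 8. With 2 libraries per group, single outlying libraries could not be tested.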

How the results depend on the processing

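Counts moved more than directions, which several of the settings could not turn. Genes with an interaction above and below 0 numbered 314 and 391 without the mean-variance trend, 361 and 541 in edgeR, 774 and 696 in DESeq2, which turned the balance, 528 and 1059 with the length and GC trend removed, and 297 and 174 when an absolute interaction of at least 1 was also asked. The last setting left 65 opposite, 114 WT-restricted and 215 Cav1KO-restricted genes. WT-restricted genes numbered 198 without the trend and 177 in edgeR, and Cav1KO-restricted genes 262 without the trend. Leaving out each library in turn gave 36 to 1747 genes above 0, 74 to 1689 below 0, 31 to 305 opposite, 28 to 806 WT-restricted and 34 to 1424 Cav1KO-restricted genes, with the lowest counts without the first Cav1KO soft library and the highest without the first Cav1KO stiff library. Of 26 lists, 15 had a median interaction above 0, and 14 to 16 in the omissions. Interactions reversed in edgeR for Mcpt8 (1.40), Dkk3 (0.65) and Adm (0.61) and in DESeq2 for Mcpt8 (0.74) and Dkk3 (0.72), genes with few reads in 1 genotype. With the length and GC trend removed, with or without the replicate block, the Cav1KO effect became -0.27 for Bnip3, 0.30 for Flna and 0.27 for Itga3, and the cause was not tested. Whether the replicate numbers pair the libraries is not stated. Correlations of deviations ran from -0.37, between WT stiff and WT soft, to 0.42, between WT stiff and Cav1KO stiff. A component shared within a substrate was not tested. The fit with the replicate block gave 569 genes above and 755 below 0. Depth limits genes near the floor of 3 reads, where a ratio cannot be read.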

Other observations

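Genes that moved the same way in both genotypes but to unequal extents included 148 that rose by more in Cav1KO cells, 129 that fell by more in Cav1KO cells, 76 that fell by more in WT cells and 7 that rose by more in WT cells. Trp53inp1, a p53-induced stress gene, had 5.32 and 7.35 CPM in WT stiff, 60.6 and 51.7 in WT soft, 14.7 and 19.1 in Cav1KO stiff and 64.4 and 55.3 in Cav1KO soft libraries, and fell by more in WT cells (interaction -1.20, limma adjusted p = 0.0293). Wisp2, a secreted CCN protein, had 28.6 and 44.3 CPM in WT stiff, 275 and 220.4 in WT soft, 181 and 206 in Cav1KO stiff and 544 and 554 in Cav1KO soft libraries (interaction -1.25, limma adjusted p = 0.03). Atf3, a stress-induced factor, had 21.9 and 23.8 CPM in WT soft libraries and 2.03 to 6.48 CPM in all others (interaction -1.67, limma adjusted p = 0.0221). Each of these 3 genes passed in 2 or 3 of 8 omissions of a library. Postn, the matrix protein periostin, had 93.3 and 59.2 CPM in Cav1KO stiff and 490.4 and 486 in Cav1KO soft libraries against 0.456 to 2.78 CPM in WT libraries (interaction 1.57), and edgeR did not call it (adjusted p = 0.412).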
